A study of Homo sapiens with 6 samples.

Results

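MALAT1, NEAT1, PVT1, MIR17HG and DANCR are long noncoding RNAs, transcripts that work as RNA or as precursors of small RNAs and are not translated. They were taken by symbol and make up 5 of the 23368 gene symbols in the count tables. The cells were NB4, an established human line of acute promyelocytic leukemia. They were either not treated or exposed to 10 µM maltonis, a synthetic small molecule built from maltol, and RNA was taken after 24 h. Both groups consist of the same cell line, so the samples hold no other genetic background and no normal promyelocytes. Each group has 3 libraries, described in the study's methods as biological replicates, and the libraries came from total RNA with a stranded ribosomal-depletion kit, which does not select for poly(A) tails.

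The 6 libraries held 18492154 to 38205483 counts, and 3 counts correspond to 0.0785 to 0.162 CPM (counts scaled to library size), a floor set by counting error alone. By a code that their names carry, the libraries form a batch A, with replicate 1 of both groups, and a batch B, with replicates 2 and 3, and what the code stands for is not stated. Of the 7 promyelocyte markers 3 were higher and 3 lower after maltonis at an adjusted p-value under 0.01. Over all tested genes 31.9% were higher and 32.1% lower. MPO, the granule peroxidase gene, fell from 14612 to 7425 CPM, and CEBPE and CD33 fell by 0.95 and 0.51 on the log2 scale, whereas CTSG rose from 109 to 553 CPM. ELANE, a granule protease gene, had 2 to 6 counts per not treated library, at or near the floor, and 17.4 CPM after maltonis. Of 8 markers of lymphoid, erythroid, epithelial and stromal cells, MS4A1 and HBB were among those at 0 in every library, and the summed level was 59.9 to 62.7 CPM in not treated and 25.7 to 28.4 CPM in maltonis libraries, almost all from CD3D and EPCAM. The part of these marker shifts in the results below was not tested. MYC, whose decrease the study examined, is given beside the RNAs.

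Long noncoding RNAs of this set act in different ways. MALAT1 and NEAT1 stay in the nucleus: MALAT1 gathers in nuclear speckles, bodies rich in splicing factors, whereas NEAT1 is the RNA scaffold on which paraspeckles are built. Both have unusual 3′ ends, cut by RNase P and capped by a triple helix instead of a poly(A) tail in MALAT1 and in the long form of NEAT1. PVT1 lies next to MYC and hosts several microRNAs. MIR17HG on chromosome 13 is the precursor of the miR-17-92 microRNAs and a classical transcriptional target of MYC. DANCR on chromosome 4 is a short, abundant and largely cytoplasmic RNA that hosts a small nucleolar RNA and is known for holding back differentiation of progenitor cells. NEAT1 and MALAT1 are neighbours on chromosome 11.

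The microRNAs made from MIR17HG are shown because they are the products through which this gene is known to act, and because they fall into few families. The 6 mature sequences below are the main arms as listed by RefSeq (GRCh38.p14, all on the plus strand of chromosome 13), with the seed, bases 2 to 8 counted from the 5′ end, in capitals.
miR-17-5p: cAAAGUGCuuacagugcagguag
miR-20a-5p: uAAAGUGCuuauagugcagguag
miR-18a-5p: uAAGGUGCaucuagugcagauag
miR-19a-3p: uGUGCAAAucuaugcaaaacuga
miR-19b-3p: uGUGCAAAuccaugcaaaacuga
miR-92a-3p: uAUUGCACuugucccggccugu
The 6 arms carry 4 different seeds. The seed of miR-17-5p and miR-20a-5p is found in 8 of 2370 mature human sequences listed by RefSeq, that of miR-18a-5p in 3, that of the miR-19 pair in 2 and that of miR-92a-3p in 6. Mature microRNAs are too short for these libraries and were not measured, so that everything said of MIR17HG below concerns the host transcript. In the annotation the 6 hairpins lie in an intron of the spliced form of MIR17HG, which has 4 exons and 931 bases, and inside an exon of the longer form, which has 2 exons and 2845 bases. The files list the 6 hairpins as genes of their own, with 0 counts in every library.

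Maltonis lowered 3 of the 5 RNAs, namely PVT1, MIR17HG and DANCR, and raised none at an adjusted p-value under 0.01 (edgeR's quasi-likelihood test, adjusted by the method of Benjamini and Hochberg over 13209 genes). In that test 32.1% of all genes were called lower and 31.9% higher, 64% in all, so that 3 lower of 5 is a count from a comparison in which most genes moved. None of the 5 went beyond 2.5-fold, which 20.3% of tested genes did together with the adjusted p-value, 10.4% by a decrease. The 3 not treated and the 3 maltonis libraries did not overlap for the same 3 RNAs, against 76.6% of all genes, 37.8% with lower and 38.8% with higher maltonis libraries, and they overlapped for MALAT1 and NEAT1. The median log2 fold change of all tested genes was 0.01.

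**Figure D1:**
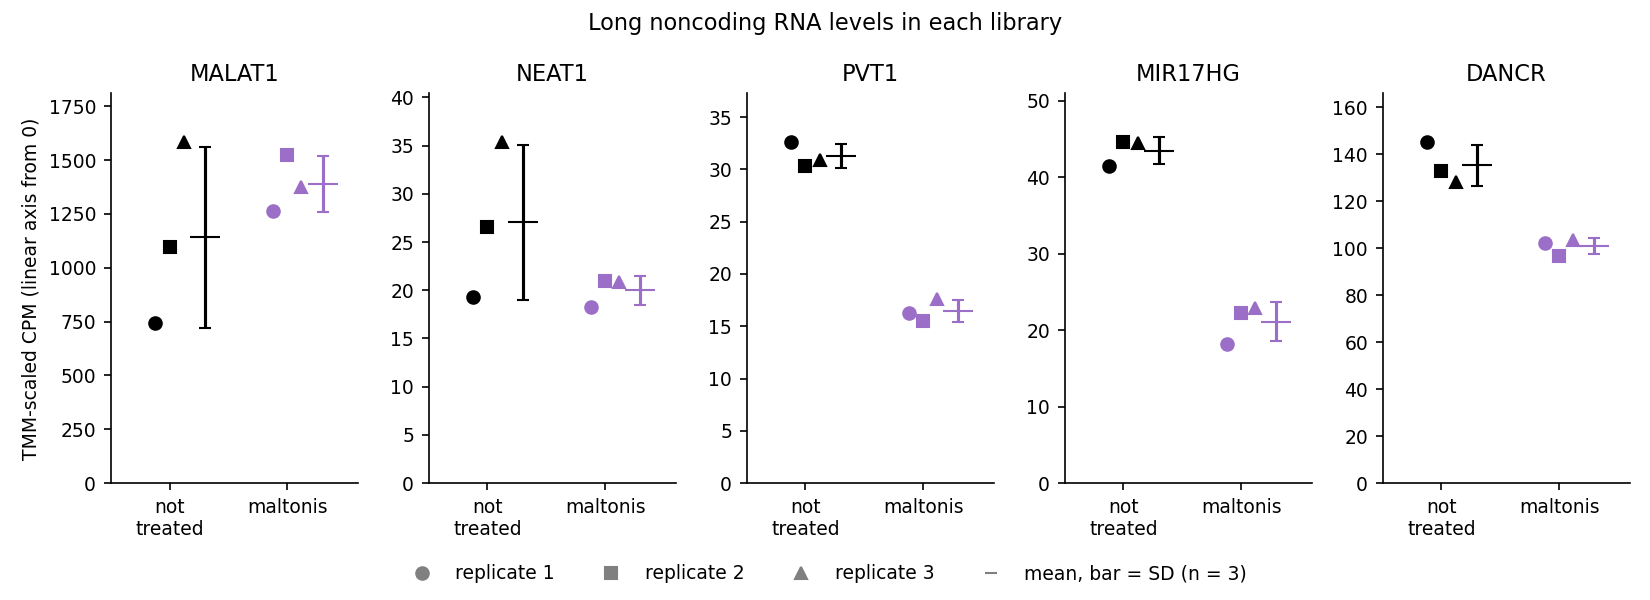
TMM-scaled CPM (y axis, linear from 0) of each RNA in the 3 not treated (black) and 3 maltonis (lilac) libraries, with the mean and SD beside the points. PVT1, MIR17HG and DANCR separate by group, whereas MALAT1 and NEAT1 spread from 744 to 1583 and from 19.3 to 35.3 CPM among not treated libraries and their groups overlap.

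MIR17HG showed the largest change of the set. Its level was 41.4, 44.6 and 44.5 CPM in not treated replicates 1, 2 and 3, and 18.2, 22.2 and 22.9 CPM in maltonis replicates 1, 2 and 3. The highest maltonis library thus lay far below the lowest not treated one. The mean went from 43.5 ± 1.78 to 21.1 ± 2.57 CPM (SD, n = 3), 48.7% of the not treated level, and the log2 fold change was −1.04 with a standard error of 0.0957 and a 95% interval from −1.26 to −0.82 (edgeR's quasi-likelihood test, adjusted p = 1.43e-05). Within batch A the log2 difference was −1.19 and within batch B −0.98. Of all tested genes, 14.3% fell further.

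PVT1 changed by nearly the same amount. Not treated replicates held 32.6, 30.3 and 30.9 CPM and maltonis replicates 16.3, 15.5 and 17.6 CPM, with no overlap. The mean was 31.3 ± 1.17 CPM and then 16.5 ± 1.07 CPM (SD, n = 3), and the estimated log2 fold change of −0.92 came with a standard error of 0.0781 and a 95% interval from −1.10 to −0.74 (edgeR's quasi-likelihood test, adjusted p = 8.45e-06). Batch A alone gave a log2 difference of −1.0 and batch B alone one of −0.89. The microRNA genes inside PVT1, MIR1204 to MIR1207, had at most 4 counts in a library. In not treated cells there were 78.7, 68.0 and 69.6 PVT1 counts for every 100 MIR17HG counts in replicates 1, 2 and 3, and after maltonis 89.5, 69.9 and 76.9. The groups overlapped in this ratio, whose log2 difference was 0.12 with SDs of 0.112 and 0.179 (exact permutation test, two-sided, p = 0.4). With 3 libraries a group this test cannot go below 0.1, so that it does not decide whether PVT1 and MIR17HG changed alike.

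DANCR fell by less. The level was 145, 133 and 128 CPM in not treated replicates 1, 2 and 3 and 102, 96.9 and 103 CPM in the maltonis replicates, and the groups did not overlap. The mean passed from 135 ± 8.78 to 101 ± 3.49 CPM (SD, n = 3), 74.6% of the not treated level, with a log2 fold change of −0.42, a standard error of 0.0657 and a 95% interval from −0.57 to −0.27 (edgeR's quasi-likelihood test, adjusted p = 0.000373). Within batches A and B the log2 difference was −0.50 and −0.38. A decrease of this size or more was common, since 30.5% of tested genes fell further. For every 100 MIR17HG counts there were 288 to 350 DANCR counts in not treated libraries and 436 to 563 after maltonis, a log2 difference of 0.63 without overlap, at the smallest p-value that 3 against 3 libraries allow (exact permutation test, two-sided, p = 0.1, and 0.12 after adjustment over the 6 ratios computed). SNORA26 and MIR4449, the small RNA genes inside DANCR, had at most 11 and 2 counts in a library.

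MYC, the transcription factor gene beside PVT1, fell further than any of the 5 RNAs. It was at 595, 705 and 682 CPM in not treated replicates and at 192, 179 and 184 CPM after maltonis, 28.0% of the not treated level. Its log2 fold change was −1.84 with a standard error of 0.0763 (edgeR's quasi-likelihood test, adjusted p = 1.66e-07). As a ratio within each library, which needs no scaling between libraries, PVT1 gave 5.48, 4.30 and 4.54 counts per 100 MYC counts in not treated replicates and 8.48, 8.69 and 9.61 after maltonis. MIR17HG gave 6.96, 6.32 and 6.52 counts per 100 MYC counts and then 9.47, 12.4 and 12.5. DANCR gave 24.4, 18.8 and 18.8 counts and then 53.4, 54.2 and 56.3. In all 3 ratios every maltonis library lay above every not treated one, so that the RNAs made up more per MYC count after treatment although each was lower. Only 5.92% of tested genes fell further than MYC, so that most genes gained relative to MYC and the rise is not particular to these RNAs. The log2 differences were 0.91 for PVT1, 0.79 for MIR17HG and 1.41 for DANCR, each with p = 0.1 in the two-sided exact permutation test, the smallest possible, and 0.12 after adjustment over 6 ratios. They were 0.63, 0.44 and 1.13 in batch A and 1.05, 0.96 and 1.55 in batch B.

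**Figure D2:**
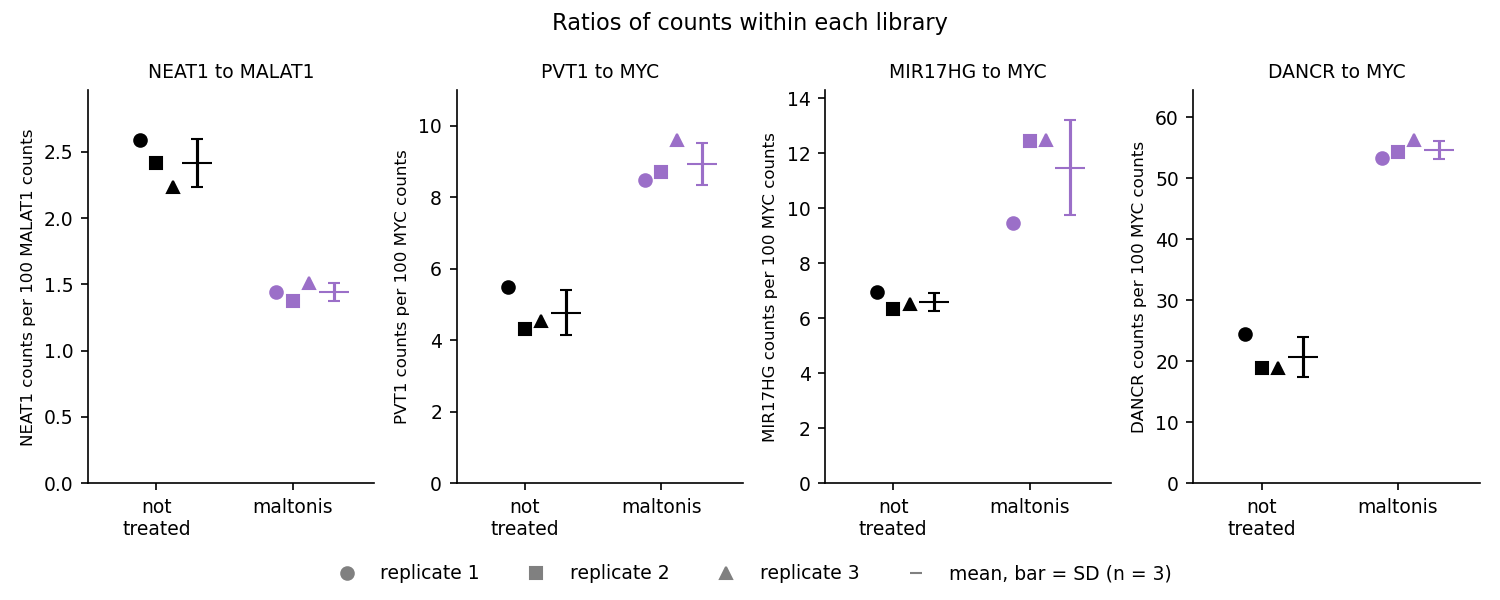
Counts of NEAT1 per 100 MALAT1 counts and of PVT1, MIR17HG and DANCR per 100 MYC counts (y axes, linear from 0) in each library, with the mean and SD beside the points. The NEAT1 ratio was 2.23 to 2.59 in not treated (black) and 1.37 to 1.51 in maltonis (lilac) libraries, and the other 3 ratios were higher in all maltonis libraries.

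MALAT1 had the most counts of the set in every library, and its level in not treated cells was unsteady. Not treated replicates 1, 2 and 3 held 744, 1097 and 1583 CPM, and maltonis replicates 1265, 1524 and 1377 CPM. The highest not treated library lay above all 3 maltonis libraries and the other 2 lay below them. The mean was 1141 ± 421 CPM in not treated and 1389 ± 130 CPM in maltonis libraries (SD, n = 3), with a log2 fold change of 0.28, a standard error of 0.228 and a 95% interval from −0.24 to 0.80 (edgeR's quasi-likelihood test, adjusted p = 0.286). Batch A alone gave a log2 difference of 0.77 and batch B alone one of 0.14. The size of this value depended on which not treated library was left out. The log2 fold change was 0.04 without not treated replicate 1 (adjusted p = 0.798 in the same edgeR test). It was 0.59 without not treated replicate 3 (adjusted p = 0.0105 in that test), while the call stayed the same.

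NEAT1 varied in the same libraries. It was at 19.3, 26.6 and 35.3 CPM in not treated replicates and at 18.3, 20.9 and 20.8 CPM in maltonis replicates, from 354 to 1172 counts per library. Not treated replicates 2 and 3 lay above all 3 maltonis libraries, and replicate 1 lay among them. The mean was 27.1 ± 8.04 CPM and 20.02 ± 1.51 CPM (SD, n = 3), with a log2 fold change of −0.44, a standard error of 0.189 and a 95% interval from −0.87 to −0.0098 that ended just short of 0 (edgeR's quasi-likelihood test, adjusted p = 0.0612). Batch A alone gave a log2 difference of −0.077 and batch B alone one of −0.55. The call changed with the treatment of batch A in the fit: the adjusted p-value was 0.00719 with batch as a term in edgeR's model, at a log2 fold change of −0.43, and 0.00133 without not treated replicate 1, at −0.63. Without not treated replicate 3 the log2 fold change was −0.21 (adjusted p = 0.212 in the same edgeR test).

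In not treated cells the highest library held 2.13 times the MALAT1 of the lowest and 1.83 times the NEAT1. Only 3.20% of tested genes had a wider range than MALAT1 and 5.87% a wider range than NEAT1, and the median gene had a ratio of 1.17. In maltonis libraries the ratios were 1.20 and 1.14, close to the median gene at 1.15. The ranges of PVT1, MIR17HG and DANCR in not treated cells were 1.07, 1.08 and 1.13, below that of the median gene. The lowest not treated library for both nuclear RNAs was replicate 1, the only one of its group in batch A and the shallowest of the group.

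**Figure D3:**
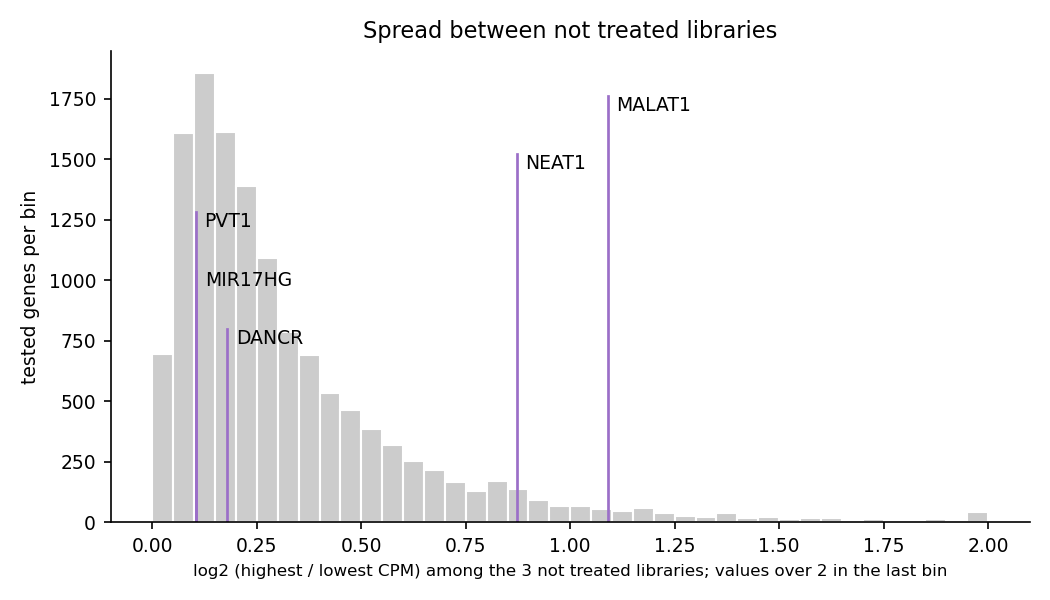
Histogram of the log2 ratio of the highest to the lowest CPM among the 3 not treated libraries (x axis) over 13209 tested genes (y axis, genes per bin), with a line for each RNA. The ratio was 2.13 for MALAT1 and 1.83 for NEAT1, in the upper tail, whereas PVT1 and MIR17HG (lines overlapping) and DANCR lie among the bulk.

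Among not treated libraries replicate 1 was the lowest and replicate 3 the highest for both nuclear RNAs, and the ratio of one to the other was much steadier than either level. There were 2.59, 2.42 and 2.23 NEAT1 counts per 100 MALAT1 counts in not treated replicates 1, 2 and 3 and 1.44, 1.37 and 1.51 in maltonis replicates, without overlap. The log2 ratio differed by −0.74, 0.598 times the not treated ratio, with SDs of 0.108 and 0.0699, and by −0.84 in batch A and −0.69 in batch B. The two-sided exact permutation test gave p = 0.1, the smallest it can give with 3 against 3, and 0.12 after adjustment over 6 ratios. NEAT1 therefore made up less relative to MALAT1 in each maltonis library than in any not treated one. Since the test cannot go below 0.1, it does not decide whether NEAT1 and MALAT1 changed unequally. Nor does the ratio show which of them changed. The reported ratio holds for reads on the annotated genes. Reads from an antisense transcript of MALAT1 would be told apart only if counting used the strand, and that setting is not given in the sources used here.

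**Figure D4:**
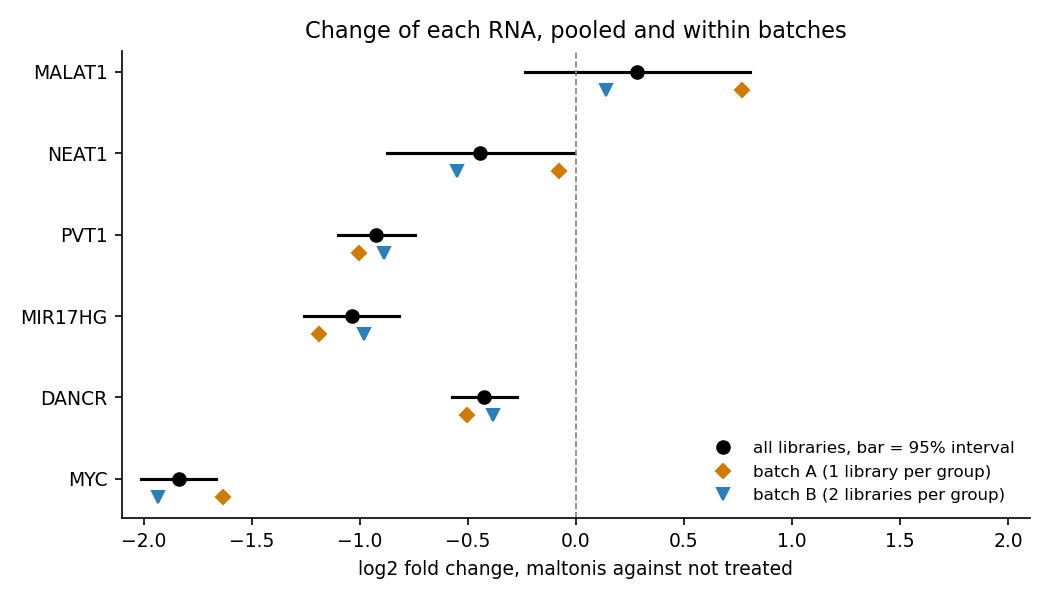
Log2 fold change of maltonis against not treated libraries (x axis) for the 5 RNAs and MYC, as the edgeR estimate with its 95% interval (black), the difference in batch A (orange diamond, 1 library per group) and in batch B (blue triangle, 2 libraries per group). Intervals of PVT1, MIR17HG and DANCR exclude 0, that of MALAT1 includes it, and that of NEAT1 ends at −0.0098.

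Levels of different RNAs can be compared only per length, and the order of the 5 then depended on the transcripts used. Expressed as RPKM (CPM divided by length in kilobases) over the exons of RefSeq-linked transcripts in GENCODE 29, DANCR was at 150 ± 9.71 and MALAT1 at 131 ± 48.4 RPKM (SD, n = 3), and these overlapped between libraries. After maltonis MALAT1 was at 159 ± 14.9 and DANCR at 112 ± 3.87 RPKM, without overlap. Over all GENCODE exons, which make DANCR longer, MALAT1 was above DANCR in both groups, at 129 against 59.3 RPKM in not treated and 157 against 44.2 RPKM in maltonis libraries. PVT1 went from 18.4 ± 0.690 to 9.70 ± 0.629 RPKM and MIR17HG from 12.5 ± 0.508 to 6.05 ± 0.735 RPKM. Over all GENCODE exons PVT1 was at 5.70 RPKM in not treated libraries, below MIR17HG, whose length was the same in both sets of exons. The counts of MIR17HG divided by the 931 bases of the spliced form alone would give 46.7 and 22.7 RPKM. NEAT1 was at 1.19 and 0.880 RPKM over its long form of 22743 bases, or at 7.68 and 5.68 RPKM over the short form of 3524 bases, and which of these the authors' annotation held is not given in the sources used here. MYC was at 279 and 78.1 RPKM on the same scale.

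The promoters of MIR17HG and DANCR are shown because both genes were lower after maltonis. PVT1 was lower too, but its promoter is not reported here, and the matches below do not extend to it. Each sequence shown is the RefSeq window from 250 bases before to 50 bases after the start of the gene (GRCh38.p14, plus strand). The CCAAT box, read as CCAAT or its complement ATTGG, is in capitals.
MIR17HG, chr13:91347437-91347736: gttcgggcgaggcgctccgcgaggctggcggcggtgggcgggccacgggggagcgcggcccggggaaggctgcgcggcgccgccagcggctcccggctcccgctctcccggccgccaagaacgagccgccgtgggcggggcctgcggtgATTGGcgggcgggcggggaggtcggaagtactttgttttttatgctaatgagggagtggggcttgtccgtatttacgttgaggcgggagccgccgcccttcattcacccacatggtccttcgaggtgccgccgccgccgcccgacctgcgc
DANCR, chr4:52712144-52712443: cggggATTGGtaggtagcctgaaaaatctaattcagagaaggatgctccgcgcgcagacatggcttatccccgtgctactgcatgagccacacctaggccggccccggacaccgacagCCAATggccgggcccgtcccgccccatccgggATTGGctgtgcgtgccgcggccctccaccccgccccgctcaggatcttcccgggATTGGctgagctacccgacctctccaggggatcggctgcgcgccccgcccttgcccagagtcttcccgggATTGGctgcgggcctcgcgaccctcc
Neither window held CACGTG, an E-box to which MYC and MAX bind, which occurs in 7.26% of 35116 promoter windows of this length. Nor did either hold the core of the interferon-stimulated response element, which occurs in 3.57%. Both strands were searched, and other forms of the E-box were not looked for. CCAAT was looked for after the sequences had been seen. It occurred at 5 places in the DANCR window, as in 0.359% of all windows with at least 5, and at 1 place in that of MIR17HG, as in 34.6% with at least 1. These matches describe the letters of the windows and say nothing of binding. The windows held 27 and 42 CpG dinucleotides for DANCR and MIR17HG, with a GC content of 67.7% and 73.0%.

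Of 9 transcription factor genes listed because they are reported to act on the miR-17-92 promoter, 8 were tested, of which 5 were lower and 1 higher, beside 32.1% and 31.9% of all genes. Alongside MYC, E2F2 had a log2 fold change of −1.41, E2F3 one of −0.46 and MAX, the partner of MYC, one of −0.41 (edgeR's quasi-likelihood test, largest adjusted p of these = 0.000711). E2F1 was at 108 CPM in not treated cells with a log2 fold change of 0.14 (adjusted p = 0.186). The median of the list was −0.44.

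Of 30 genes reported as targets of the miR-17-92 microRNAs, 29 were tested, and 11 were lower, 5 higher and 13 did not pass. Over all tested genes 32.1% were lower and 31.9% higher. The median log2 fold change of the list was −0.16. The 2 highest were TXNIP, an inhibitor of thioredoxin, at 1.26, and RB1, the retinoblastoma tumor suppressor, at 0.81. The 2 lowest were CDKN1A, the p21 inhibitor of the cell cycle, which went from 21.3 to 1.65 CPM at −3.73, and CCND1, cyclin D1, at −2.94. BCL2L11, which codes for the cell death protein BIM, spread from 19.8 to 38.2 CPM in not treated cells and had a log2 fold change of 0.01 (adjusted p = 0.956). Called genes of this list thus went in both directions, and the count of 5 higher became 3 without not treated replicate 3, maltonis replicate 2 or maltonis replicate 3.

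The microRNA processing list held 16 tested genes, among them Argonaute and TNRC6 genes, which act with mature microRNAs. In this list 7 fell, 1 rose and 8 did not pass. Over all tested genes 64% were called, 32.1% as lower and 31.9% as higher. The median log2 fold change of the list was −0.23. The count of 1 higher became 2 without not treated replicate 3, and also with replicate as a term in edgeR's model. Scaling by total counts or by the upper quartile gave 2 as well. DICER1, the enzyme that cuts precursor hairpins, fell from 197 to 122 CPM with a log2 fold change of −0.69. TARBP2, a partner of DICER1, fell by 1.06 on the log2 scale, and LIN28B, known for blocking let-7 maturation, fell by 1.04. DROSHA and DGCR8, which make the first cut in the nucleus, had log2 fold changes of 0.09 and 0.03 (edgeR's quasi-likelihood test, adjusted p = 0.522 and 0.598). EIF2C3, the Argonaute gene now named AGO3, rose by 0.38, and TNRC6B was at 0.34 (adjusted p = 0.0234).

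MIR17HG was one of 11 tested host genes of microRNAs, of which 4 rose, 3 fell and 4 did not pass. Over all tested genes 31.9% were higher and 32.1% lower. MIR17HG was the lowest of the 11 host genes, followed by MIRLET7BHG at −0.79, whose call was lost in 6 of 15 alternative fits. MIR210HG, host of a microRNA known for its response to low oxygen, rose from 1.02 to 5.95 CPM with a log2 fold change of 2.48, and MIR22HG from 0.871 to 2.95 CPM with 1.81. The median of the list was −0.03, 0.06 when scaled by the upper quartile and 0.09 when scaled by total counts, a scaling that lifted the log2 fold change of the median gene by 0.12.

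**Figure D5:**
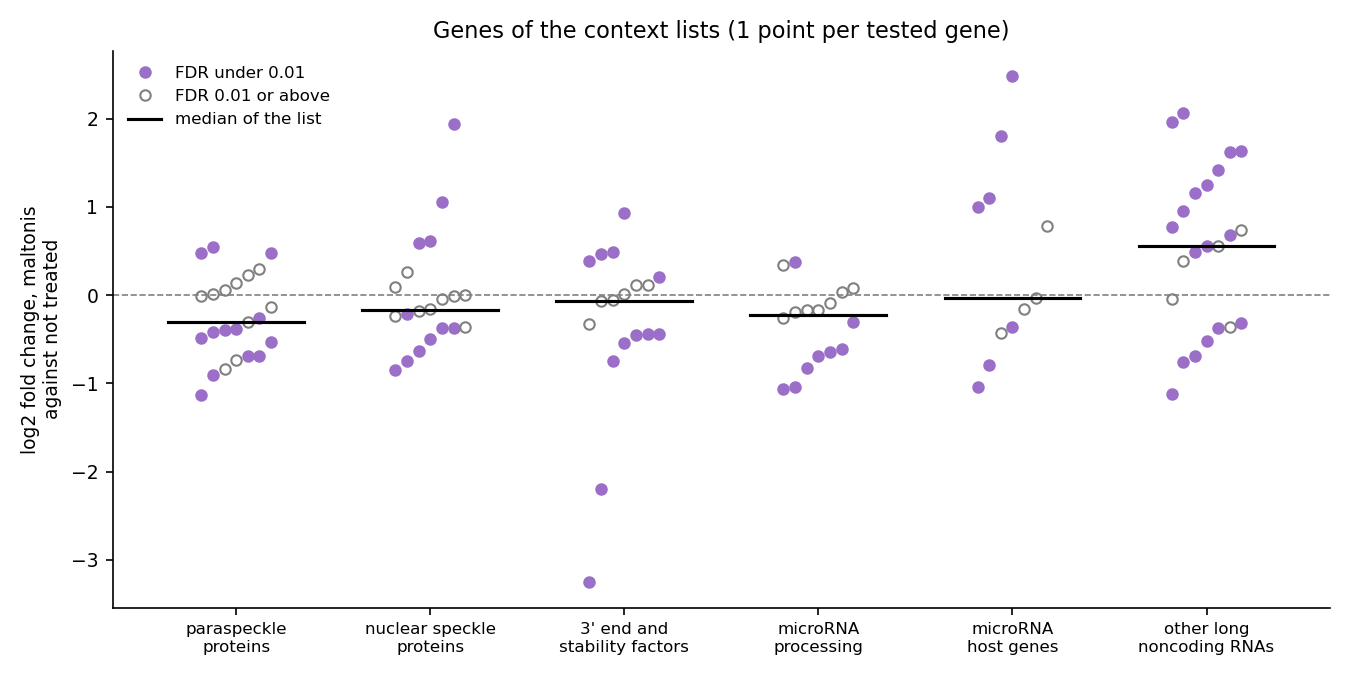
Log2 fold change of maltonis against not treated libraries (y axis) for each tested gene of 6 context lists, with lilac points for adjusted p-values under 0.01, open points for the others and a black line at the median of the list. Medians were −0.30 for paraspeckle proteins, −0.17 for nuclear speckle proteins, −0.06 for 3′ end and stability factors, −0.23 for microRNA processing, −0.03 for microRNA host genes and 0.56 for other long noncoding RNAs.

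Of 23 tested paraspeckle proteins, which assemble on NEAT1, 10 were lower, 3 higher and 10 did not pass, beside 32.1% of all genes lower and 31.9% higher. The median log2 fold change was −0.30, and a difference of the list from other genes was not tested. SFPQ, a core protein needed to build paraspeckles, fell from 678 ± 26.0 to 309 ± 19.4 CPM (SD, n = 3) with a log2 fold change of −1.13 (edgeR's quasi-likelihood test, adjusted p = 8.92e-07), and HNRNPK, known for favouring the long form of NEAT1, fell by 0.91 on the log2 scale. The partners of SFPQ did not go with it. NONO was at 603 and 599 CPM with a log2 fold change of −0.01 (adjusted p = 0.915), and PSPC1 rose from 107 to 149 CPM with 0.47 (adjusted p = 0.000139). HNRNPUL1 was at 0.54 and CPSF7, a subunit of the CFIm complex that acts in 3′ end choice, at 0.48. HNRNPUL1 lost its call without not treated replicate 2 or 3.

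Of 20 nuclear speckle proteins, the bodies in which MALAT1 gathers, 7 were lower, 4 higher and 9 did not pass. Over all tested genes 32.1% were lower and 31.9% higher. The median log2 fold change of the list was −0.17. SRSF3, a splicing factor, fell from 486 to 271 CPM with −0.84, and BCLAF1 fell from 428 to 254 CPM with −0.75. PNISR, a speckle protein rich in serine and arginine, rose from 112 to 233 CPM with 1.05. DDX39B, an RNA helicase of splicing and export, had the largest rise of the list, with a log2 fold change of 1.94, at only 0.648 and 2.52 CPM.

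The 18 genes listed for cutting, capping or degrading the 3′ ends of MALAT1 and NEAT1 split into 7 lower, 5 higher and 6 not passing. Over all tested genes 32.1% were lower and 31.9% higher. The median of the list was −0.06 and became 0.06 when scaled by total counts and 0.03 by the upper quartile. The count of 5 higher became 3 without maltonis replicate 2 or 3. The lowest were protein subunits of RNase P, the enzyme that cuts MALAT1 and long NEAT1 from their nascent transcripts. RPP21 fell from 4.65 to 0.517 CPM with a log2 fold change of −3.26, and RPP25 from 7.66 to 1.70 CPM with −2.20 (edgeR's quasi-likelihood test, adjusted p = 1.66e-05 and 6.35e-06). POP5, another subunit of RNase P, rose by 0.48, and RBM7, of the complex that brings nuclear RNAs to the exosome, by 0.93. ELAC2, or RNase Z, which trims the small RNA cut from the end of MALAT1, fell from 280 to 192 CPM with −0.54, and METTL16, which binds the triple helix of MALAT1, fell by 0.45 on the log2 scale. RPPH1, the RNA subunit of RNase P, belongs to the list of small abundant RNAs. It was at 8205, 9058 and 8470 CPM in not treated replicates and at 9437, 13394 and 12100 CPM after maltonis, with a log2 fold change of 0.44 (adjusted p = 0.00902) that did not pass in 5 of the 6 fits that left out 1 library.

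Small abundant RNAs without a poly(A) tail were listed beside the nuclear RNAs. Their summed level was 15831 to 16695 CPM in not treated libraries and 20799 to 26220 CPM in maltonis libraries, mostly from RPPH1 and RMRP, the RNA of RNase MRP, which rose from 7168 to 11863 CPM with a log2 fold change of 0.73. Of 9 tested, 3 were higher, 1 lower and 5 did not pass, beside 31.9% of all genes higher and 32.1% lower. SCARNA5 was lower, at −0.67, and the spliceosomal RNU11, RNU6ATAC and RNU12 had log2 fold changes of 0.95, 1.07 and −0.76 that did not pass (edgeR's quasi-likelihood test, adjusted p = 0.0404, 0.0345 and 0.0700). The count of 3 higher became 1 without not treated replicate 3, maltonis replicate 2 or maltonis replicate 3, and 5 with a batch term. The part of this shift in the MALAT1 and NEAT1 values was not tested.

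The genes next to each RNA were compared with it by their order in the RefSeq annotation of GRCh38.p14, with 3 neighbours on each side. Beside the 5 RNAs themselves there were 25 such flanking genes, of which 10 were tested, 4 rising and 4 falling. Over all tested genes 64% were called, 31.9% as higher and 32.1% as lower. The small RNA genes inside the RNAs did not reach the filter. On chromosome 11, FRMD8, the nearest neighbour on the NEAT1 side, rose with a log2 fold change of 0.61, TIGD3 rose from 0.862 to 8.66 CPM with 3.35, and SSSCA1 fell by 0.61 on the log2 scale. SLC25A45 was called higher at 1.87 from 2 to 8 counts per not treated library, a call lost in 6 alternative fits, and LTBP3 was at −0.50 (edgeR's quasi-likelihood test, adjusted p = 0.0972). Genes on either side of NEAT1 and MALAT1 thus went in both directions.

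Around PVT1 the only tested neighbours were MYC and FAM49B, which had a log2 fold change of −0.20 (edgeR's quasi-likelihood test, adjusted p = 0.0456). POU5F1B, PCAT1, GSDMC and MIR1208 had at most 2 counts in a library. Around MIR17HG no neighbour reached the filter, and LINC00410, MIR622, SLITRK5, GPC5, GPC6 and DCT had at most 2 counts in a library, so that MIR17HG stood among genes at or near 0 counts. Beside DANCR, USP46, a deubiquitinating enzyme, fell further than DANCR itself. It was at 46.4, 43.1 and 42.7 CPM in not treated replicates and at 9.19, 8.62 and 8.48 CPM after maltonis, with a log2 fold change of −2.33 (adjusted p = 5.87e-08 in the same edgeR test). SCFD2 on the other side was at −0.32, a call lost when scaled by total counts or the upper quartile.

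The genes whose log2 CPM followed each RNA most closely over the 6 libraries were named as a description, since any gene that separates the groups correlates with any other that does. For PVT1 these were ATF3, CRBN and DYRK3, with r of 0.999 each, and 22.9% of tested genes had an r above 0.95 with it. For MIR17HG they were DEM1, C5orf28 and MRPS33, with 19.2% of genes above 0.95, and for DANCR TMSB10, UQCR11 and MGC2752, with 17.4%. The nuclear pair was followed by far fewer genes. MALAT1 was followed most closely by TRAPPC9, GANAB and ANKHD1, with r of 0.997, 0.989 and 0.988, and 0.235% of genes were above 0.95. NEAT1 was followed by PIGW, YLPM1 and ARID1B, with r of 0.997, 0.992 and 0.991, and 0.500% of genes were above 0.95. None of these 6 passed the test between groups, and YLPM1, as an example, ranged from 57.4 to 103 CPM in not treated and from 55.1 to 59.7 CPM in maltonis libraries.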

How the data were processed

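The authors deposited 1 table of whole-number HTSeq counts per library, not normalized, for 6 libraries, with TopHat, Bowtie2, HTSeq and hg19 named in the submitters' processing notes. Versions, annotation and the strand setting are not given in the sources used here. Counts were tested in R 4.3.3 with edgeR 4.0.16 (TMM scaling, filterByExpr, quasi-likelihood test without covariates) and Benjamini-Hochberg adjustment over 13209 genes, with a threshold of 0.01. Adjusted p-values are from this test unless another fit or test is named. Replicates were checked pairwise by chi-square per degree of freedom (4.15 to 33.1) and none agreed within sampling noise. The test was first tested on simulated data. It recovered 4.08% of 1.25-fold, 42% of 1.5-fold, 79.6% of 2-fold and 100% of 4-fold changes, and called 3 of 12869 unchanged genes. DESeq2 1.42.0, other scalings, no filter, a batch term and each library left out served as alternatives. RPKM used GENCODE 29 lengths, and sequences are from RefSeq (GRCh38.p14). Symbols were matched by name for 19863 and by synonym for 2151. Named genes are the 5 RNAs, MYC, the 2 highest and 2 lowest tested genes of each list, the 3 closest in pattern and the neighbours. Other list members, such as NONO, PSPC1, DICER1, DROSHA, DGCR8, BCL2L11, E2F2, E2F3, MAX, ELAC2, METTL16, RPPH1 and RMRP, were named after their values were seen. The 5 RNAs and all lists were chosen with earlier results of these data known. Some genes of these lists are not reported here.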

Additional observations from a re-analysis of the deposited data

How the results depend on the processing

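PVT1, MIR17HG and DANCR kept their direction and stayed under an adjusted p-value of 0.01 in all 15 alternatives, with log2 fold changes from −1.0 to −0.81, from −1.13 to −0.92 and from −0.47 to −0.31. MALAT1 did not pass in any, between 0.04 and 0.59. NEAT1 ranged from −0.63 to −0.21 when 1 library at a time was left out, and passed in 4 of 15 alternatives: with a replicate block (−0.42, adjusted p = 0.00648 in edgeR's quasi-likelihood test), with a batch term (−0.43, 0.00719), in batch B alone (−0.57, 0.00172, chosen after seeing the data) and without not treated replicate 1 (0.00133), and the cause was not tested. Replicate numbers name the libraries but were not shown to pair them, since the deviations of same-numbered libraries correlated at 0.301, 0.0852 and 0.161 and not treated replicate 2 correlated better with maltonis replicate 3 (0.123). With the replicate block 4602 genes were higher and 4620 lower, against 4213 and 4239 without it. Scaling by total counts gave 4902 and 3652. Of 270 counts of list genes under alternatives, 15 moved by more than 1.5 times. NEAT1 had 354 or more counts in each library, and the part of depth in the spread of the nuclear RNAs was not tested.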

Other observations

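Among 34 other long noncoding RNAs found in the files, 23 were tested, and 12 were higher, 6 lower and 5 did not pass. Over all tested genes 31.9% were higher and 32.1% lower. The median log2 fold change of the list was 0.56, beside 0.01 over all tested genes. When scaled by total counts, 3 of the list were lower. TERC, the RNA template of telomerase, rose from 48.8 to 150 CPM with a log2 fold change of 1.62 (edgeR's quasi-likelihood test, adjusted p = 2.73e-06), and EPB41L4A-AS1 rose from 21.8 to 67.5 CPM with 1.64. HOTAIRM1, transcribed from the HOXA cluster in myeloid cells, rose from 3.05 to 11.9 CPM with 1.97, and EGOT rose from 0.287 to 1.16 CPM with 2.07. H19, an imprinted RNA that hosts a microRNA, was the lowest and fell from 114 to 52.3 CPM with a log2 fold change of −1.12, and DLEU1, which lies beside the miR-15a and miR-16-1 genes, fell by 0.76 on the log2 scale. TERC and EPB41L4A-AS1 were named after their values were seen.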
